A study of Mus musculus with 12 samples.

Results

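The expression of 8 genes of the ADP-ribosylation system was followed through TC2Ras prostate tumors: Parp9, Dtx3l, Parp14, Parp10, Parp11, Parp12, Zc3hav1 and Parp1. They were taken by symbol from the 55401 genes of the count table, and the 8 members all passed the filter on low counts that left 20818 genes for testing. PARP enzymes move ADP-ribose from NAD onto proteins and nucleic acids, and interferon switches on a branch of the family that adds single ADP-ribose units and is known for restricting viruses. DTX3L is a ubiquitin ligase that works as a complex with PARP9. PARP1 answers DNA breaks with chains of ADP-ribose and lies outside interferon control, so it was included as a comparator.

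TC2Ras is a mouse prostate cancer cell line driven by Ras. Each of 12 mice received TC2Ras cells (125000 implanted) under the skin of both flanks after low-arsenic chow and Milli-Q water, and the tumors of both flanks were pooled per mouse at day 21, so that 1 library stands for 1 mouse. Control tumors grew from TC2Ras cells alone with 0 ppb inorganic arsenic (iAs) in the water, ASC tumors from TC2Ras cells mixed with 1% ASC-GFP, As300 tumors from TC2Ras cells alone with 300 ppb iAs, and ASC_As300 tumors had both, with 3 tumors in each of the 4 groups. ASC-GFP are primary stromal cells from the fat of male mice that carry a GFP transgene, and the age, sex and strain of the recipient mice were not given in the sources used here. The labels name the cell type as adipose-derived stromal cells, while the methods describe whole excised tumors. The libraries held leukocyte, endothelial, muscle and epithelial transcripts beside collagen genes, with none of the 45 markers at 0 in every tumor.

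Libraries held 39157647 to 55168642 counts. Levels are given as CPM, counts relative to a library size scaled by TMM. Control replicate 1 stood apart in some cell type markers: its B and plasma cell markers summed to 85.5 CPM against 1.301 to 6.08 CPM in the other 11 tumors, and its epithelial markers, mostly Krt8, summed to 362 CPM against 26.9 to 119 CPM. Skeletal muscle markers summed to 1461 CPM in Control replicate 2 and 1478 CPM in As300 replicate 1, against 1.26 to 295 CPM in the other 10 tumors, and adipocyte markers to 467 CPM in ASC replicate 2, against 30.8 to 246 CPM in the other 11. In bulk tumors fewer cells of a type and less RNA per cell cannot be told apart.

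Among the members, 3 are neighbors on chromosome 16 of the GRCm38 annotation. Parp14 (chr16:35832874-35871544, minus strand), Dtx3l (chr16:35926511-35939151, minus strand) and Parp9 (chr16:35938470-35972605, plus strand) together span 140 kb. Dtx3l and Parp9 stand head to head, with start sites 681 bases apart and overlapping 5′ ends, so that each gene is transcribed across the start of the other. Their exons share 458 bases on opposite strands. The library kit marks strand, but the strand setting of the counting was not given, so reads from the shared bases could have been counted for either gene.

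Sequence before the start sites was available for 5 of the 8 members in the RefSeq windows of GRCm38.p6, which run from 250 bases before a start to 50 bases after it. They were searched on both strands for the interferon-stimulated response element core GAAANNGAA and the gamma-activated site TTCNNNGAA, the letters read by interferon-driven transcription factors. The windows of 3 members are printed: Dtx3l because it lies within the annotated Parp9 gene, the upstream window of Parp11 because it alone among the members held a match, and Parp1 as the comparator. Capitals mark the matches, which overlap by the letters TTC.
Dtx3l, chr16:35938978-35939277, minus strand: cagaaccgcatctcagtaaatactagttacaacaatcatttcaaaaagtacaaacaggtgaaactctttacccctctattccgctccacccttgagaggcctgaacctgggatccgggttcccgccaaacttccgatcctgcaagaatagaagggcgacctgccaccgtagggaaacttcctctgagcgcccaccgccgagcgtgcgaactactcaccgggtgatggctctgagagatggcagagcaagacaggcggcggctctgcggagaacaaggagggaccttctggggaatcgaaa
Parp11, chr6:127446590-127446889, plus strand: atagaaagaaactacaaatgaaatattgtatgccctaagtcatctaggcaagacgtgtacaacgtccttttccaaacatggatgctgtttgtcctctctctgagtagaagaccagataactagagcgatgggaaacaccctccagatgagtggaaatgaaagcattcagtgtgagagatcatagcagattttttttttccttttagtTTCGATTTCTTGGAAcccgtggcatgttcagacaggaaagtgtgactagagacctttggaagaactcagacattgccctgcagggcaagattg
Parp1, chr1:180568641-180568940, plus strand: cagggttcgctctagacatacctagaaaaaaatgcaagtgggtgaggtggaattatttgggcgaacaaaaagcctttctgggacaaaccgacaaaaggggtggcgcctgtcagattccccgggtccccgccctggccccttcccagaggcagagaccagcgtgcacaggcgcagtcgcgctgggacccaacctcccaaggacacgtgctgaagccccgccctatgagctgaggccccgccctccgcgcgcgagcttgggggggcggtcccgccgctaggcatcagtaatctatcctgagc
In the upstream Parp11 window, GAAATCGAA was found on the minus strand with its leftmost base at position -43 from the start, and TTCTTGGAA at position -37. The Dtx3l, Parp12, Zc3hav1 and Parp1 windows and the downstream Parp11 window held neither motif. Over all 27025 genes with a window, 9.76% held the first motif and 9.55% the second in at least 1 window (8.56% and 8.3% of the 32851 windows), so that 1 member of 5 with a match is a description and not a binding site. With the spacing in the first motif allowed to run from 1 to 3 bases, 21% of all windows matched. Of the other PARP genes, 2 of 8 with a window held the first motif (Parp4 and Tnks2), and 1 held the second (Parp16).

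The first question was whether the members differed between tumors with and without co-implanted ASC. In the ASC effect over both iAs levels, which averages the ASC difference at 0 ppb and at 300 ppb iAs, 6 of the 8 members were called higher by edgeR and none lower, where calls were made at an adjusted p below 0.05 for differences of 1.5-fold or more. Of all genes tested, 1.36% were called higher in this comparison. Parp9, Dtx3l, Parp14, Parp10, Parp12 and Parp11 rose, between 1.72-fold and 2.79-fold. The median log2 fold change of the 8 members was 1.09, beside a median of -0.0042 over all genes.

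PARP9 carries macrodomains, folds that bind ADP-ribose, and acts with DTX3L. Parp9 was at 28.6, 28.9 and 21.2 CPM in the Control tumors, 63.3, 59.8 and 57.2 CPM in ASC, 19.6, 22.3 and 21.9 CPM in As300, and 51.9, 58.6 and 62.3 CPM in ASC_As300. All 6 tumors with ASC lay above all 6 without. The ASC effect was 2.49-fold (95% interval 2.19 to 2.83, log2 fold change 1.32, SE 0.086, adjusted p = 4.55e-06 by edgeR).

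Dtx3l was at 19.8, 20.7 and 17.9 CPM in Control, 49.5, 48.2 and 51.2 CPM in ASC, 20.5, 15.4 and 16.6 CPM in As300, and 42.7, 50.8 and 53.4 CPM in ASC_As300. The 2 sets of 6 tumors were again separate, and the lowest tumor with ASC was more than 2 times the highest without. Its ASC effect was 2.67-fold (2.35 to 3.04, log2 fold change 1.42, SE 0.086, adjusted p = 2.54e-06). This was the 7th smallest p-value of all 20818 genes, and Parp9 had the 9th.

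The partners moved side by side. The log2 ratio of Parp9 to Dtx3l CPM was 0.42 ± 0.15 (SD, n = 3) in Control, 0.28 ± 0.10 in ASC, 0.29 ± 0.32 in As300 and 0.24 ± 0.04 in ASC_As300. These means lie within the spread of the As300 tumors, where replicate 1 alone had less Parp9 than Dtx3l, with a log2 ratio of -0.067. Among all tested genes with a symbol, Dtx3l had the profile nearest to that of Parp9 over the 12 tumors, with a root mean square difference of 0.165 between centered log2 CPM values, and Parp9 was the second nearest to Dtx3l after Il15ra (0.108). By Pearson correlation the nearness was less marked: Dtx3l ranked 15th for Parp9 and Parp9 ranked 25th for Dtx3l among the genes tested. The part of the 458 shared exon bases in this likeness was not tested.

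PARP14, the largest of the macrodomain PARPs, attaches single ADP-ribose units and is known as a cofactor of STAT6. Parp14 was at 40.03, 34.6 and 21.3 CPM in Control, 89.7, 85.5 and 79.0 CPM in ASC, 28.5, 20.3 and 27.8 CPM in As300, and 66.2, 80.8 and 77.5 CPM in ASC_As300. Tumors with ASC did not overlap those without, although the Control tumors themselves spread widely. Parp14 had the largest ASC effect of the 8, at 2.79-fold (2.26 to 3.44, log2 fold change 1.48, SE 0.14, adjusted p = 5.92e-05), with an interval that overlaps those of Parp9 and Dtx3l.

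PARP10, PARP12 and PARP11 also add single ADP-ribose units. Parp10 was at 27.9, 27.4 and 24.7 CPM in Control, 59.6, 51.1 and 64.5 CPM in ASC, 29.0, 25.9 and 28.9 CPM in As300, and 47.3, 64.3 and 59.6 CPM in ASC_As300. The tumors without ASC were tightly grouped, and the gap to those with ASC was wider than the spread of either set. The ASC effect of Parp10 was 2.12-fold (1.86 to 2.41, log2 fold change 1.08, SE 0.087, adjusted p = 1.55e-05). Parp10 shares 205 exon bases on the same strand with Plec, at a mean of 674 CPM, so part of its reads could belong to either gene.

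PARP12 has zinc fingers that bind RNA. Parp12 was at 27.1, 28.5 and 18.0 CPM in Control, 54.2, 62.1 and 50.4 CPM in ASC, 25.1, 23.4 and 30.8 CPM in As300, and 46.7, 58.3 and 53.8 CPM in ASC_As300. No tumor without ASC reached a tumor with ASC, and Control replicate 3 was the lowest. The ASC effect was 2.13-fold (1.78 to 2.54, log2 fold change 1.09, SE 0.12, adjusted p = 0.000194).

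PARP11 is found at the nuclear envelope. Parp11 was at 17.6, 14.9 and 10.7 CPM in Control, 24.8, 26.8 and 22.2 CPM in ASC, 11.96, 12.7 and 15.6 CPM in As300, and 24.3, 22.4 and 23.2 CPM in ASC_As300. Its groups were separate too, but Control replicate 1 came nearest of all to the tumors with ASC. The ASC effect was 1.72-fold (1.44 to 2.07, log2 fold change 0.79, SE 0.12, adjusted p = 0.00323), the smallest of the 6 that were called.

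ZC3HAV1, also called ZAP or PARP13, binds viral RNA rich in CpG and has lost its enzymatic activity. Zc3hav1 was at 83.6, 83.4 and 79.1 CPM in Control, 90.7, 89.0 and 83.7 CPM in ASC, 82.4, 66.6 and 74.9 CPM in As300, and 87.8, 79.8 and 87.5 CPM in ASC_As300. Tumors with and without ASC overlapped. The ASC effect was 1.104-fold (1.01 to 1.21, log2 fold change 0.14, SE 0.060, adjusted p = 0.397) and was not called. The gene has 4 annotated transcripts, and gene-level counts do not separate the long and short protein forms.

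Parp1 was at 94.6, 87.7 and 90.9 CPM in Control, 98.0, 94.6 and 94.6 CPM in ASC, 70.0, 91.7 and 85.5 CPM in As300, and 88.1, 102 and 86.5 CPM in ASC_As300. Its groups overlapped, and the lowest tumor was As300 replicate 1, which also held muscle transcripts, whose part was not tested. The ASC effect of Parp1 was 1.08-fold (0.976 to 1.20, log2 fold change 0.12, SE 0.070, adjusted p = 0.612). The upper bounds for Zc3hav1 and Parp1 lay below the lower bounds of the 6 called members.

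**Figure D1:**
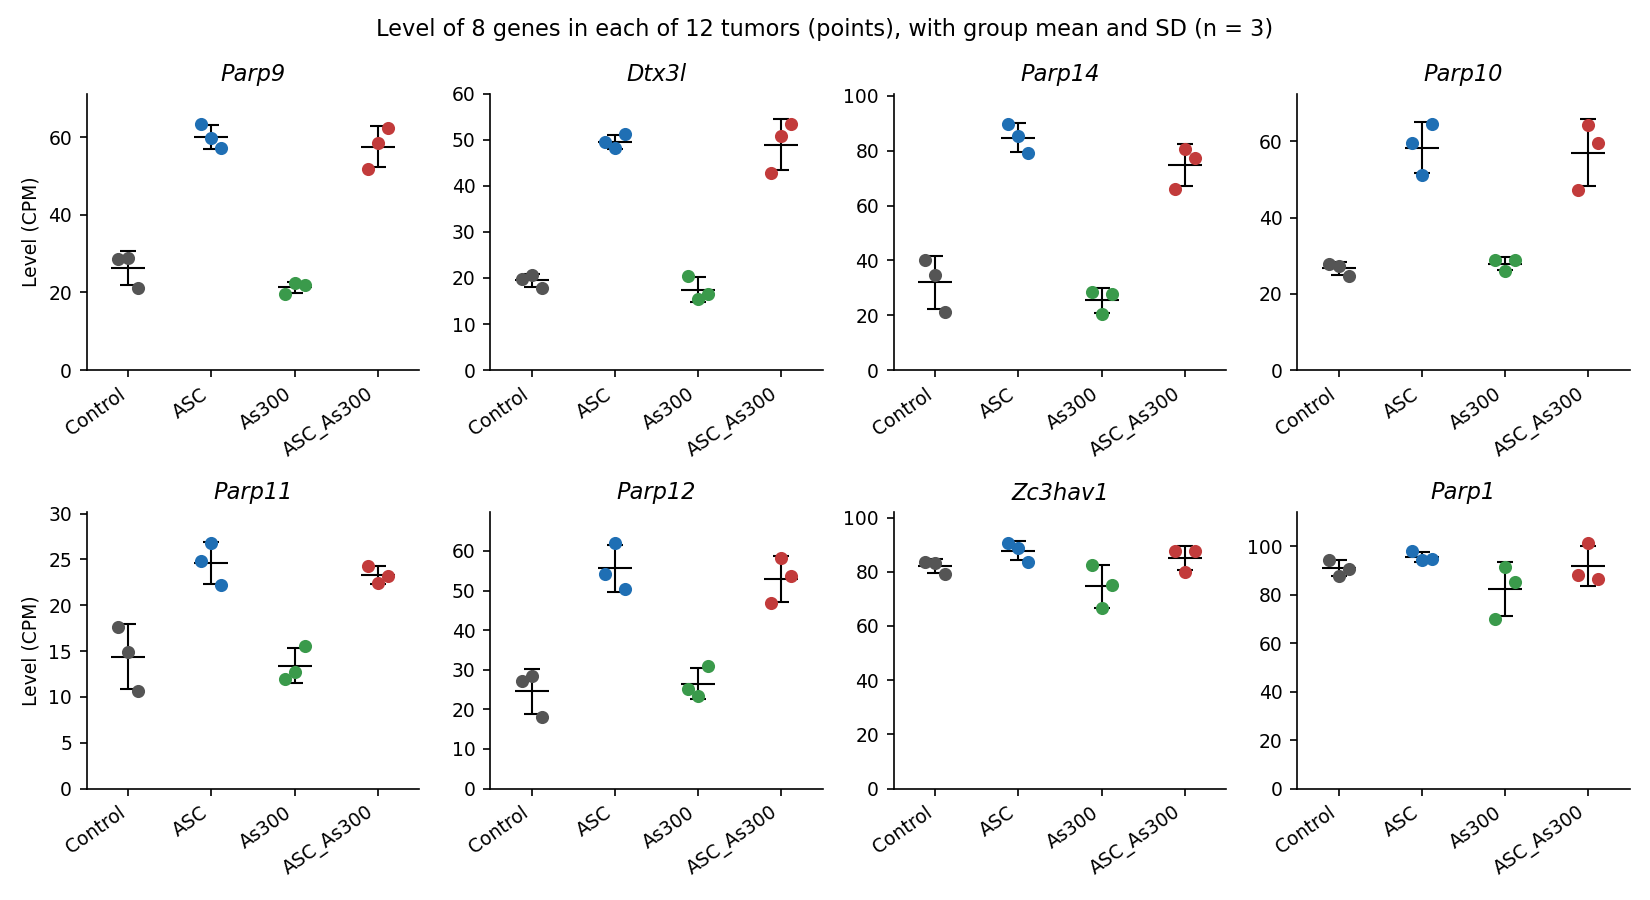
Level in CPM (vertical axes, from 0) of each of the 8 genes in the 12 tumors, 1 point per tumor, with lines for the group mean and SD (n = 3). In the panels of Parp9, Dtx3l, Parp14, Parp10, Parp11 and Parp12 the ASC and ASC_As300 tumors sit above all Control and As300 tumors, while in those of Zc3hav1 and Parp1 they overlap.

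For 6 of the 8 members, then, the 6 tumors with ASC all lay above the 6 without. Among all genes tested, 1.68% showed this separation. The ASC effects of the same 6 members were called whichever of the 12 tumors was left out. Without Control replicate 1 they had log2 fold changes of 1.35 for Parp9, 1.42 for Dtx3l, 1.57 for Parp14, 1.096 for Parp10, 0.87 for Parp11 and 1.13 for Parp12. The lowest values came without Control replicate 3 for Parp9 (1.25), Parp14 (1.37), Parp11 (0.70) and Parp12 (1.00). For Dtx3l the lowest was 1.37, without As300 replicate 2, and for Parp10 1.03, without ASC_As300 replicate 2.

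Levels per kb of exon allow the genes to be set roughly beside each other. The length takes in the exons of all annotated transcripts, and which transcripts were made was not tested, so the order is approximate. In the 6 tumors without ASC, Parp1 (16.4 ± 1.7 CPM per kb, SD, n = 6) and Zc3hav1 (12.02 ± 1.02) were the most abundant, followed by Parp10 (6.38 ± 0.40) and Parp12 (6.38 ± 1.12), Parp9 (4.88 ± 0.82), Dtx3l (3.23 ± 0.39), Parp14 (3.09 ± 0.82) and Parp11 (1.98 ± 0.37). Parp10 and Parp12 could not be ordered, nor could Dtx3l and Parp14, since each was the higher in 3 of 6 tumors. In the 6 tumors with ASC, Parp1 stayed first at 17.7 ± 1.1 CPM per kb. Parp12 (13.6 ± 1.4) and Parp10 (13.5 ± 1.7) then had levels whose ranges overlapped that of Zc3hav1 (13.3 ± 0.61), and Parp9 followed at 12.1 ± 0.85. Dtx3l (8.61 ± 0.64) and Parp14 (8.57 ± 0.86) overlapped each other, and Parp11 remained last at 3.41 ± 0.25.

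**Figure D2:**
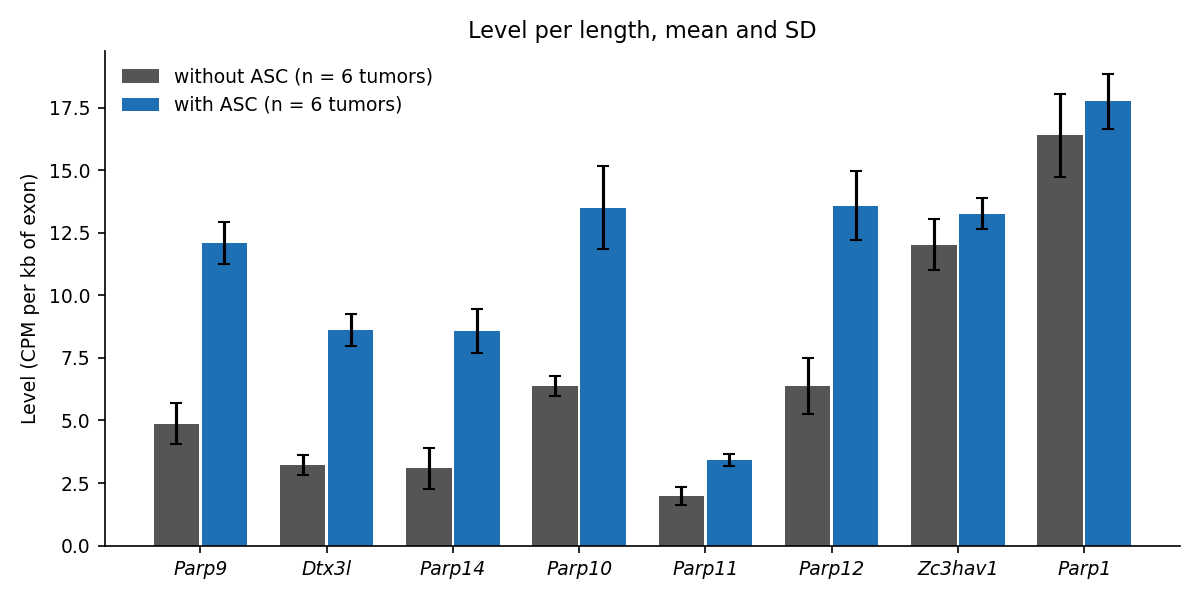
Mean level per kb of exon (vertical axis, CPM per kb, from 0) of the 8 genes in tumors without ASC (gray) and with ASC (blue), with SD bars over 6 tumors each. Parp12 and Parp10 reach the level of Zc3hav1 in the tumors with ASC, at 13.6, 13.5 and 13.3 CPM per kb.

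Within the water without iAs, ASC and Control tumors were compared to show the ASC difference alone. Of the 8 members, 5 were called higher (Parp9, Dtx3l, Parp14, Parp10 and Parp12) and none lower, against 0.706% of all genes called higher. Log2 fold changes were 1.20 for Parp9 (SE 0.12, adjusted p = 0.000479), 1.35 for Dtx3l (0.12, 0.000251), 1.41 for Parp14 (0.20, 0.0035), 1.13 for Parp10 (0.12, 0.000628) and 1.18 for Parp12 (0.17, 0.00394). Parp11 had a log2 fold change of 0.77 (SE 0.17, adjusted p = 0.0631), which missed the threshold. It was called in 4 of 20 alternative settings, among them without Control replicate 1 (0.95, adjusted p = 0.0194) and by the DESeq2 Wald test (0.78, adjusted p = 0.000703). Zc3hav1 (0.10) and Parp1 (0.07) were not called.

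In water with 300 ppb iAs, ASC_As300 and As300 tumors gave the same 5 calls, with none lower, against 0.793% of all genes called higher. Log2 fold changes were 1.44 for Parp9 (SE 0.12, adjusted p = 8.6e-05), 1.49 for Dtx3l (0.12, 7.6e-05), 1.55 for Parp14 (0.20, 0.00149), 1.03 for Parp10 (0.12, 0.000919) and 1.00 for Parp12 (0.17, 0.0117). Parp12 lost the call without As300 replicate 1 (0.97, adjusted p = 0.0612), As300 replicate 2 (0.92, 0.0769), ASC_As300 replicate 2 (0.91, 0.07) or ASC_As300 replicate 3 (0.99, 0.0585). Parp11 had 0.80 (SE 0.17, adjusted p = 0.0538) and was called in 5 of 20 alternative settings. Among these were the fits without Control replicate 1 (0.78, 0.0246) or Control replicate 3 (0.78, 0.0139), a fit of the 6 tumors alone (0.78, 0.0233) and DESeq2 (0.77, 0.000991).

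Tumors with both ASC and iAs were also set against Control, which serves as the control of the ASC comparison too, so the 2 sets of values are not independent. The same 5 members were called higher, against 0.783% of all genes, with log2 fold changes of 1.13 for Parp9, 1.33 for Dtx3l, 1.23 for Parp14, 1.098 for Parp10 and 1.11 for Parp12 and adjusted p-values from 0.00029 to 0.00862. Parp11 had 0.69 (adjusted p = 0.085), and was called in 2 of 20 alternative settings, without Control replicate 1 (0.87, 0.0348) and by DESeq2 (0.69, 0.00365). Zc3hav1 (0.05) and Parp1 (0.02) were not called.

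The iAs comparisons asked whether arsenic in the water moved the members. In As300 against Control tumors none of the 8 was called by edgeR or by DESeq2, where edgeR called 0.701% of all genes higher and 0.355% lower. One member, Parp9, had an unadjusted p under 0.05, with a log2 fold change of -0.30 (95% interval -0.56 to -0.04, adjusted p = 0.151). Parp14 had -0.33 (-0.75 to 0.10, adjusted p = 0.339), and for Parp10, Parp11, Parp12, Dtx3l, Zc3hav1 and Parp1 the values lay between -0.16 and 0.11.

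In ASC_As300 against ASC tumors, both tools called 0 of the 8 members, none had an unadjusted p under 0.05, and edgeR called 0% of all genes in either direction (307 higher and 362 lower at an unadjusted p under 0.05, 4 and 7 called by DESeq2). Values ran from -0.18 for Parp14 (-0.60 to 0.24) to -0.02 for Dtx3l (-0.28 to 0.24), so that halving or doubling of any member by iAs lay outside its interval. The iAs effect over both ASC levels likewise gave 0 members and 0% of all genes by edgeR, 0 members by DESeq2 and none with an unadjusted p under 0.05. Over all genes, 1564 were higher and 1761 lower at an unadjusted p under 0.05, and DESeq2 called 30 and 84. Its lowest values were -0.25 for Parp14 (-0.55 to 0.04) and -0.18 for Parp9 (-0.37 to 0.0024).

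The interaction tests whether the ASC difference itself changed with iAs. It was called by neither tool for any member, none had an unadjusted p under 0.05, and edgeR called 0% of all genes (1473 and 1363 at an unadjusted p under 0.05, 23 and 121 called by DESeq2). The widest estimates were 0.24 for Parp9 (-0.13 to 0.61) and -0.18 for Parp12 (-0.69 to 0.33). For Parp14 the interval ran from -0.45 to 0.74, and the intervals of these 3 members reach past 1.5-fold.

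**Figure D3:**
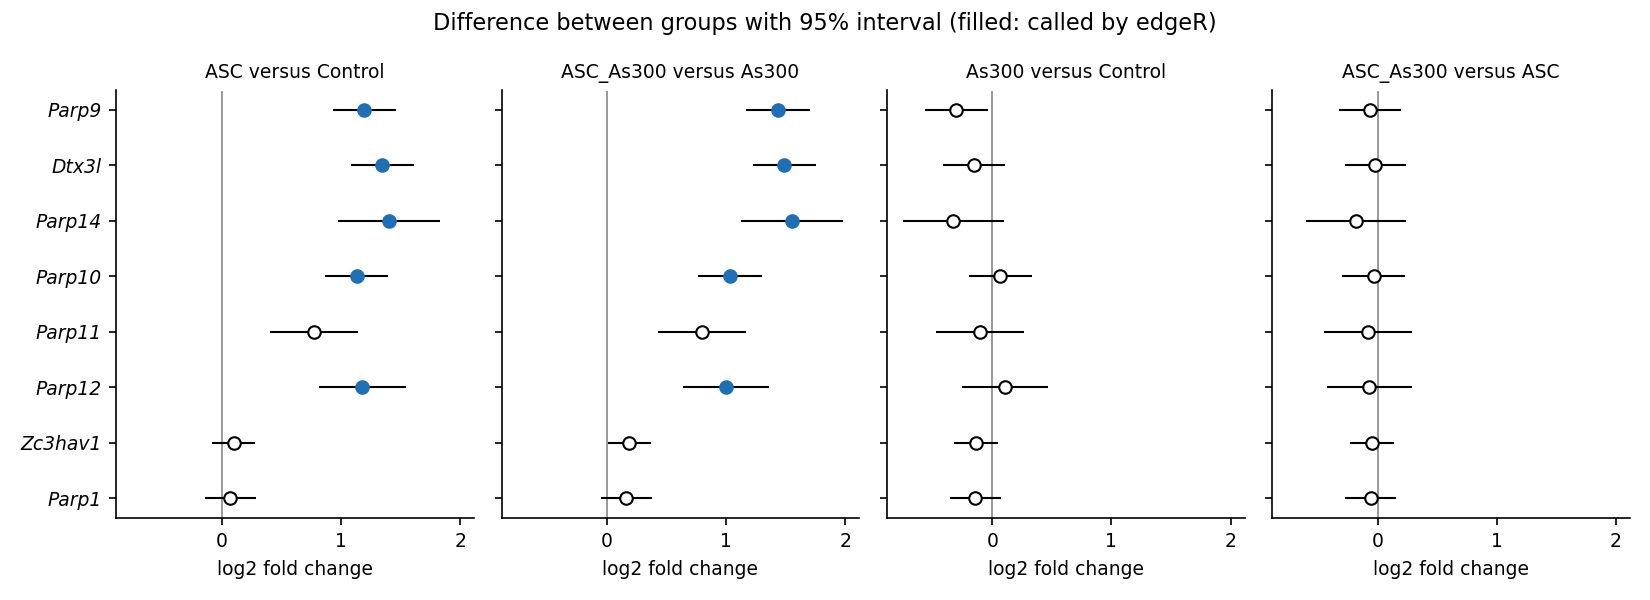
Log2 fold change (horizontal axes) of the 8 genes in 4 comparisons, with 95% intervals and filled points for calls by edgeR. The 5 filled points in each ASC comparison lie between 1.00 and 1.55, and all values in both iAs comparisons lie between -0.33 and 0.11.

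The chromosome 16 cluster was compared with its neighbors. The 3 members of the cluster had ASC effects of 1.48, 1.42 and 1.32 on the log2 scale. None of the 4 protein coding genes on either side was called. Hspbap1 (-0.035, SE 0.084) and Kpna1 (0.011, SE 0.079) border the cluster, and the others lay between -0.15 and 0.20 except for Sema5b, at a mean of 0.43 CPM (-1.07, SE 0.49, adjusted p = 0.463).

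**Figure D4:**
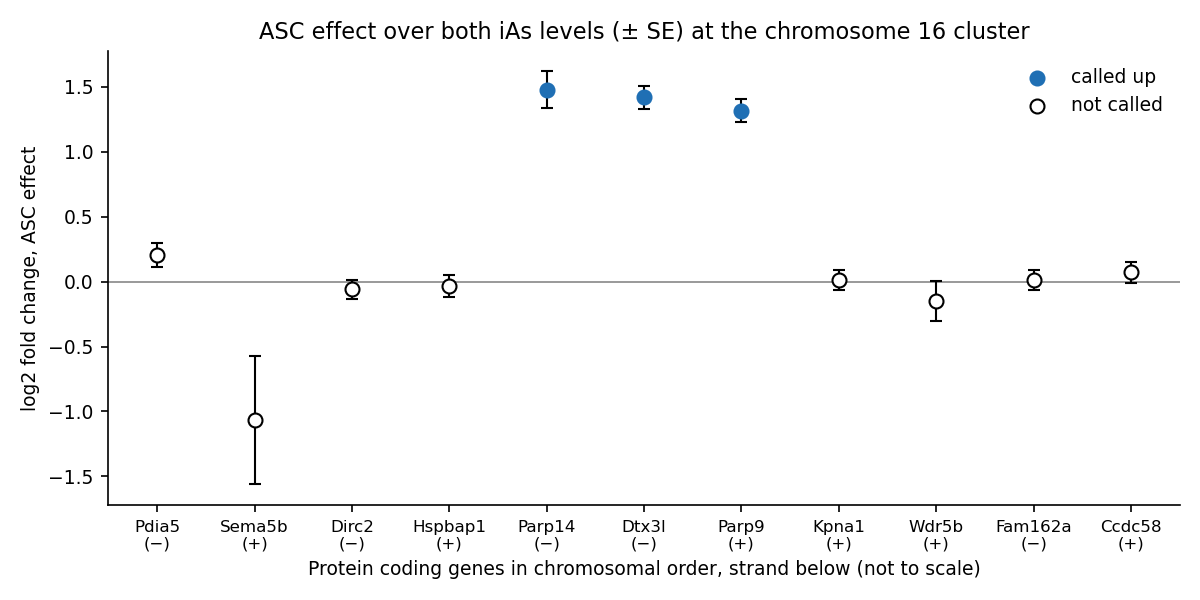
ASC effect over both iAs levels (vertical axis, log2 fold change ± SE) of 11 protein coding genes in their order along chromosome 16, with strand below each name. Parp14, Dtx3l and Parp9 stand at 1.48, 1.42 and 1.32, and the 8 genes around them were not called.

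Genes whose profiles lay nearest to the members were drawn by root mean square difference of centered log2 CPM over the 12 tumors, as a description. For Parp9 they were Dtx3l (0.165), Stat2 (0.181) and Tapbpl (0.186). For Parp14 they were H2-Q4 (0.173), H2-K1 (0.178) and H2-DMb1 (0.178), all of the major histocompatibility complex. For Parp10 they were Tapbp (0.129), H2-T22 (0.136) and Ifi35 (0.137), for Parp12 Fcgr1 (0.139), Lgals3bp (0.144) and Dhx58 (0.150), and for Parp11 Unc93b1 (0.121), Samhd1 (0.123) and Trafd1 (0.126). Dtx3l had Il15ra (0.108), Parp9 (0.165) and Il18bp (0.182). Zc3hav1 varied little between tumors, with an SD of 0.12 on the log2 scale against 0.83 for Parp14, and its nearest genes were Gna13 (0.061), Xrn1 (0.069) and Riok2 (0.070). Ranked by Pearson correlation instead, the first gene was Zbp1 for Parp9, Irgm2 for Dtx3l, Ube2l6 for Parp10, Tnfsf10 for Parp11 and Oas3 for Parp12. The tumors share 4 groups, so such likeness follows any ASC difference.

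Interferon signaling genes were read beside the members. Of 13 ligand, receptor, kinase and factor genes, 6 were called higher in the ASC effect and none lower, with a list median of 0.20 on the log2 scale. Ifng, which encodes interferon gamma, was at 0.10, 0.23 and 0.087 CPM in Control, 2.31, 1.72 and 2.24 CPM in ASC, 0.30, 0 and 0.41 CPM in As300, and 1.86, 2.21 and 3.52 CPM in ASC_As300. The tumor without an Ifng count allows up to 3 counts, or 0.0613 CPM, and, if 1 read pair gave 4 counts, up to 12 counts or 0.245 CPM, within the range of the other tumors without ASC. All 6 tumors with ASC were above all 6 without in Ifng, a separation that 1.68% of all genes tested showed. In the ASC effect over both iAs levels Ifng was called by edgeR (log2 fold change 3.63, SE 0.57, adjusted p = 0.00385). At these low levels edgeR did not call Ifng in ASC against Control (adjusted p = 0.0563) or in ASC_As300 against As300 (0.0813). It was called in ASC_As300 against Control (0.0347). Among the called genes, the transcription factor genes Irf1 (log2 fold change 1.57, SE 0.088) and Stat2 (1.16, SE 0.12) rose, as did Socs1 (1.096, SE 0.13), a brake on the pathway, and Irf9 (0.69, SE 0.087). The receptor and kinase genes Ifngr1, Ifngr2, Ifnar1, Ifnar2, Jak1, Jak2 and Tyk2 had values between 0.03 and 0.20, none of them called.

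The rest of the ADP-ribose system gave no call in the ASC effect. None of the 9 other PARP genes was called, and their median was -0.066. Parp3, a DNA break PARP, had 0.42 (SE 0.087, adjusted p = 0.0258), under the 1.5-fold limit, and Tnks (-0.13), Parp4 (0.13) and Tnks2 (-0.08) followed by p-value. The 8 genes that remove or read ADP-ribose, such as Parg and Oard1, lay between -0.13 and 0.15, and the 10 repair partners of PARP1, such as Xrcc1 and Hpf1, between -0.21 and 0.20. None of the 4 other Deltex ligases was called, with Dtx1 at -1.14 (SE 0.46, adjusted p = 0.37). Dtx1 was low in every group, at means of 0.47 CPM in ASC to 1.29 CPM in Control, and was highest in Control replicate 1 at 2.52 CPM. Of 5 cofactors of ZC3HAV1 none was called, with N4bp1 at 0.21 (SE 0.051, adjusted p = 0.0531) and Trim25 at 0.23 (SE 0.062, adjusted p = 0.1). Of 10 genes that make or use NAD, the substrate of the family, none was called, with Nampt, which recycles NAD, at 0.36 (SE 0.088, adjusted p = 0.0652).

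**Figure D5:**
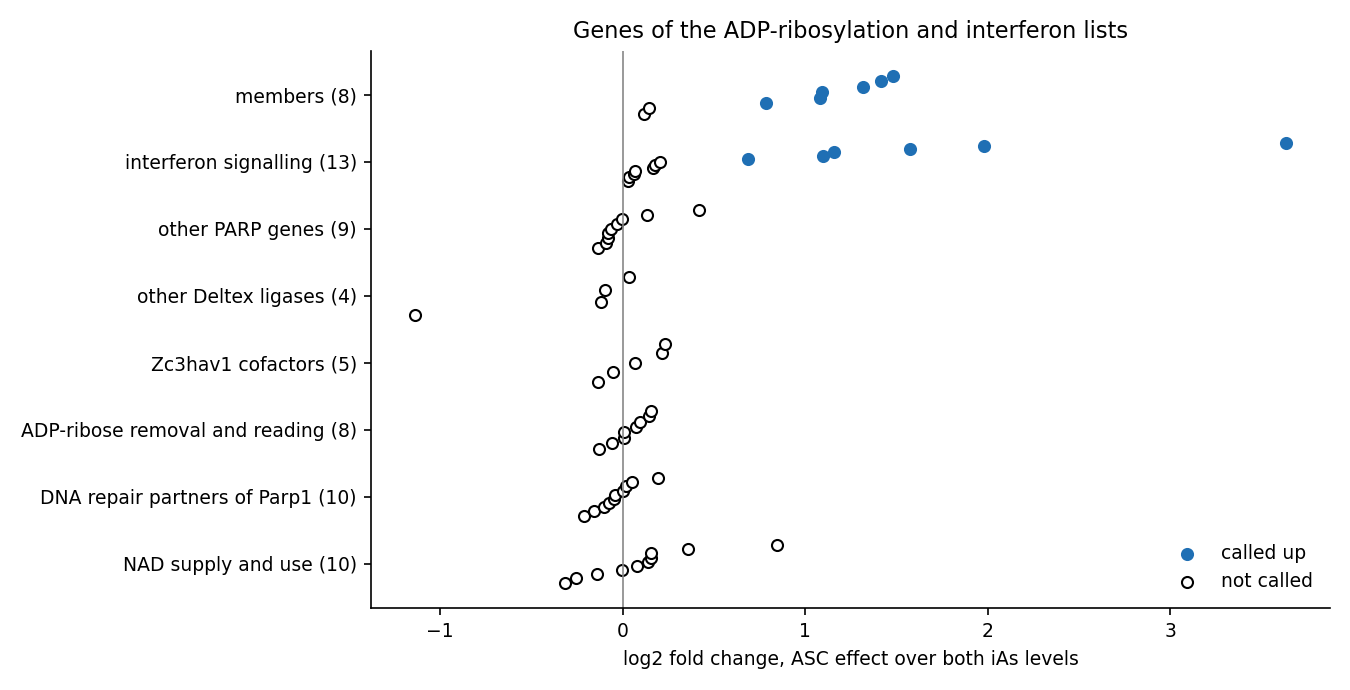
ASC effect over both iAs levels (horizontal axis, log2 fold change) of the 8 members and of 7 gene lists, 1 point per gene, filled where edgeR called it. Filled points occur in the rows of the members (6 of 8) and of interferon signaling (6 of 13).

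Cell type markers moved with the ASC groups in part. Leukocyte markers summed to 334 to 598 CPM in Control, 442 to 619 CPM in ASC, 412 to 447 CPM in As300 and 486 to 573 CPM in ASC_As300, and 2 of 12 were called higher in the ASC effect: Nkg7 (2.12), of natural killer and cytotoxic T cells, and Cd8a (2.20). The pan-leukocyte marker Ptprc had 0.48 (adjusted p = 0.432), and none of the 12 was at 0 in every tumor. Tumor epithelium markers summed to 65.7 to 362 CPM in Control and 96.4 to 119 CPM in As300 but 29.8 to 48.6 CPM in ASC and 26.9 to 36.7 CPM in ASC_As300, and 1 of 5 was called lower, Krt8 (-2.03). Krt8 made up most of these sums, at 62.1 to 337 CPM in Control, 91.3 to 113 in As300, 26.2 to 44.8 in ASC and 24.1 to 31.1 in ASC_As300. The other markers, Epcam (-0.53), Krt18 (-2.26), Cdh1 (-0.11) and Krt19 (-0.24), were not called and reached at most 19.7 CPM. The sums therefore describe Krt8 more than a panel. Fibroblast and stromal markers summed to 3599 to 6075 CPM over all tumors, with none of 7 called. The part of these cell types in the levels of the members was not tested.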

How the data were processed

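Poly(A) RNA of 12 tumors was sequenced in pairs from strand-marking libraries. The deposited values are whole-number counts per Ensembl gene without normalization, which the authors made by trimming with cutadapt 1.1.0, aligning with HISAT2 2.0 and quantifying with StringTie 1.3.4 (versions from the submitters' processing notes). The step that gave counts, its strand setting, the genome build and the annotation are not given in the sources used here, nor how many counts 1 read pair gave, so fits with counts divided by 4 were tried. Libraries held 39157647 to 55168642 counts, and errors are the spread between tumors.

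Symbols, coordinates and exon lengths came from the GENCODE M21 annotation, and promoter windows from RefSeq. The members and gene lists were chosen with earlier results of these data known. Genes were filtered with filterByExpr by group and scaled by TMM. The quasi-likelihood F test of edgeR 4.0.16 (R 4.3.3) was used on a fit of the 12 tumors together that gave each group its own mean, and p-values were adjusted by Benjamini-Hochberg over 20818 genes. Log2 CPM carried a prior count of 2. Named genes are all members, the 3 nearest profiles of each member other than Parp1, 4 protein coding genes on each side of the chromosome 16 cluster, and up to 4 genes of a list with the smallest p-values, plus genes a result turns on. Of the lists, Xrcc1, Hpf1, Parg and Oard1 are examples, the interferon receptors and kinases are named in full, and Nkg7, Cd8a, Ptprc and Krt8 were chosen after their values were seen. The other epithelial markers are named because Krt8 made up most of their sum. Alternatives were DESeq2 1.42.0, its size factors, other filters, no minimum fold, the tumors compared alone, the replicate number as a block, and leaving out each tumor. The procedure was tested on simulated counts with less spread between tumors than these data have, and with changes set only in genes of high count. That test therefore does not measure how well the procedure does on these data. A value of the interferon list is not reported here. Replicates are separate mice.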

Additional observations from a re-analysis of the deposited data

How the results depend on the processing

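The counts of members called kept within 1.5 times their values under every alternative: 6 in the ASC effect in every setting, 5 to 6 in ASC and in ASC_As300 against Control, 4 to 6 in ASC_As300 against As300, and 0 in the iAs comparisons and the interaction. All 21 called values of single members kept their call, apart from Parp12 in ASC_As300 against As300, as given above. Parp11 gained 11 calls over 3 ASC comparisons with 20 alternative settings each, and stayed uncalled in the other settings. The gains included ASC against Control with at least 10 counts in every tumor (0.79, adjusted p = 0.0397) and with counts divided by 4 (0.78, 0.0423). Signs turned only in small values that were not called, and the cause was not tested. The interaction of Parp11 (0.023) was -0.0099 with DESeq2 size factors, -0.021 with at least 10 counts, -0.025 with counts divided by 4 and -0.0043 by DESeq2.

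Leaving out each tumor in turn, the interaction ran from -0.17 to 0.17 for Parp11, from -0.0697 to 0.34 for Parp14 and from -0.018 to 0.17 for Parp1. As300 against Control ran from -0.25 to 0.086 for Parp11 and from -0.045 to 0.25 for Parp12. The iAs effect ran from -0.17 to 0.00061 for Parp11, from -0.0597 to 0.0901 for Parp12 and from -0.027 to 0.086 for Parp10. ASC_As300 against ASC ran from -0.15 to 0.018 for Parp12, from -0.084 to 0.068 for Dtx3l, from -0.14 to 0.083 for Parp10 and from -0.12 to 0.0055 for Parp9, and ASC_As300 against Control from -0.055 to 0.0599 for Parp1.

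With the replicate number as a block, the member counts were 5, 5, 5 and 6 in the ASC comparisons and 0 in the others, with no call changed. The labels do not say what the replicate numbers stand for. Same-numbered tumors deviated together little (correlations from -0.12 to 0.17, 2 of 18 pairs over 0.1). These values gave no clear sign of pairing, but weak correlations cannot show that there is none. Over all genes the background moved more: As300 against Control called 146 higher and 74 lower, but 8 and 0 without a filter, 339 and 115 with at least 10 counts, 354 and 106 with counts divided by 4, 328 and 265 without a minimum fold, 122 and 34 in the 6 tumors alone, 503 and 324 by DESeq2, and 0 to 279 higher without 1 tumor. ASC against Control called 147 higher, but 374 by DESeq2, 87 in the 6 tumors alone and 298 without ASC replicate 1. ASC_As300 against Control called 163 higher, but 312 by DESeq2 and 88 without ASC_As300 replicate 3, and ASC_As300 against As300 165, but 308 by DESeq2 and 92 without As300 replicate 2.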
